A study of Mus musculus with 5 samples.

Results

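The genes encoding the proteasome were followed in macrophages taken from mouse tumors, with the subunits of the immune form set against those of the constitutive form. Members were the rows of the authors' deposited gene table that Cuffdiff had tested and whose symbol began with Psma to Psmg and a digit. This gave 47 genes of the 12311 tested rows. Of these, 46 had at least 1 FPKM (fragments scaled by transcript length and library size, a level per length) in at least one group, and the exception was Psma8. The immune subset held 5 of the 47, namely Psmb8, Psmb9, Psmb10, Psme1 and Psme2. The constitutive subunit gene Psmb5 shared its row with the microRNA gene Mir686, so it was not among the 47, and its row is described beside them. Psmb11, the thymic subunit, was listed but not tested (0.00834 FPKM in MEK1-hi and 0.00582 FPKM in MEK1-low). The symbol also admitted Psmc3ip, a meiotic recombination cofactor that is no subunit.

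RNA-seq had been made from 3 MEK1-hi and 2 MEK1-low libraries of macrophages taken ex vivo from tumors of the 9609 line, an MCA fibrosarcoma. The MEK1-hi group is labelled 9609 MEK1-hi as line, MEK1-hi as genotype and MEK1-hi exosomes as treatment. The MEK1-low group is labelled 9609 MEK1-low, MEK1-low and MEK1-low (GFP) exosomes. MEK1 is the kinase that phosphorylates ERK, and exosomes are small vesicles shed by cells. Both groups carry the name of the 9609 tumor line and an exosome treatment. The MEK1 part of the line, genotype and exosome labels differs together between the groups, so these cannot be told apart. The labels give no host strain, age or time, and nothing in them ties a library to its own animal. Although the title contrasts tumors that were rejected with tumors that grew, no label assigns either fate to a group. The table holds 1 pooled FPKM per group, so no value per library and no SD can be given, and the depth behind each value is unknown. In place of a spread, the test statistic of Cuffdiff and its q value (p adjusted over all 12311 tested rows) are given. Both come from the authors' model of these libraries, whose spread may be technical. They cannot be checked here against values per library. All folds are MEK1-hi over MEK1-low.

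The proteasome cuts ubiquitin-tagged proteins into peptides. Its 20S core is a barrel of outer alpha rings and inner beta rings, and in each beta ring the subunits encoded by Psmb5, Psmb6 and Psmb7 cut. Interferon-gamma induces replacements for them, encoded by Psmb8, Psmb9 and Psmb10, and newly made cores that contain these are called immunoproteasomes. Their products more often end in residues that suit the transporter encoded by Tap1 and Tap2 and the groove of MHC class I. The 19S cap, with its ATPases (Psmc genes) and its lid and base subunits (Psmd genes), recognises and unfolds tagged proteins. The ring-shaped activator PA28, encoded by Psme1 and Psme2 and also inducible by interferon-gamma, opens the core from its ends. Immune cells, macrophages and dendritic cells among them, carry immune subunits without stimulation.

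The transcripts of the immune subset had the highest fold changes of the proteasome genes in MEK1-hi macrophages, and most of the rest stayed close to the level of MEK1-low. Psmb8, Psmb9 and Psme2 rose by Cuffdiff's q threshold of 0.05, while Psmb10 and Psme1 were higher without passing it. Thus 3 of the 47 members were called higher (6.38%) and 0 lower, against 1.32% of all tested rows called, 0.999% higher and 0.325% lower. All 3 lay in the immune subset. Of the 42 other members, 0 were called in either direction. At an unadjusted p under 0.05 there were 6 members (12.8%), all higher, against 6.08% of all tested rows, 3.5% higher and 2.58% lower. They were the 5 genes of the immune subset and, of the other members, 1 (2.38%), Psma5. The median log2 fold change was 0.84 over the immune subset and 0.02 over the other members, beside -0.02 over all tested rows. The lowest fold change in the immune subset, 0.72 for Psmb10, lay just above the highest outside it, 0.72 for Psma5. Since the table has no value per library, the difference between the immune subset and the other members was not tested. The values come from bulk RNA, in which fewer cells of a type and less RNA per cell cannot be told apart. Among cell markers, 2 of 8 dendritic cell and 4 of 8 monocyte markers were also called higher. Of 11 fibroblast and fibrosarcoma markers tested in rows of their own, 4 were called lower, and each of these lists had 0 called the other way. All 9 T and NK cell markers tested in rows of their own lay above 0, with 0 called. Summed levels are given with the other cell markers.

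The promoter windows that follow are printed because they belong to the immune genes whose motifs or neighbours are described further on and to the constitutive partners they are set against. Each window runs from 250 bases before to 50 bases after the start in RefSeq (GRCm38.p6, the assembly that mm10 names), 5′ to 3′ on the gene's strand, with any match to the 4 motifs searched in capitals.
Psmb8, chr17:34197945-34198244, plus strand: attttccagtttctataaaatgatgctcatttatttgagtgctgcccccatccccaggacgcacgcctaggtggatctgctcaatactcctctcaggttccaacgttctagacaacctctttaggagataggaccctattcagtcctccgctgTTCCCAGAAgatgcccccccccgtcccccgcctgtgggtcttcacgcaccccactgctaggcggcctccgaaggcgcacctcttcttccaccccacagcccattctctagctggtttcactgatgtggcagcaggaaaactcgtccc
Psmb9, chr17:34187281-34187580, minus strand: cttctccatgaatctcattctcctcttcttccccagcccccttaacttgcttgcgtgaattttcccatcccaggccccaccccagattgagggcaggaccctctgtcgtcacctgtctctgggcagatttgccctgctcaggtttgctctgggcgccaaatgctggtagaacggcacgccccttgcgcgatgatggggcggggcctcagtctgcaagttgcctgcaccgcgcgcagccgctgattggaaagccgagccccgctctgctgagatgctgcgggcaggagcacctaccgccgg
Psme1, chr14:55578244-55578543, plus strand: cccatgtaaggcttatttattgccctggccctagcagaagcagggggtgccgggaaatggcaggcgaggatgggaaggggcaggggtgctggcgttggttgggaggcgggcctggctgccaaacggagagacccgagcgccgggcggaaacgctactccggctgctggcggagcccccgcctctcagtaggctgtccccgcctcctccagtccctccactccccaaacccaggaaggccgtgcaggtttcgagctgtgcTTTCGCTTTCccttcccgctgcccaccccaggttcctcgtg
Psmb5, chr14:54617946-54618245, minus strand: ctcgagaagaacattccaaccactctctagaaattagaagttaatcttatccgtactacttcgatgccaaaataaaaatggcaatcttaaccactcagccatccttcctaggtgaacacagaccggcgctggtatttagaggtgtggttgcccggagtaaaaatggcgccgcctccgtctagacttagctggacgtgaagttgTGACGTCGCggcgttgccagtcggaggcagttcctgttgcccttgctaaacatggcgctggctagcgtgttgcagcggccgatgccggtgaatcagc
Psmb6, chr11:70525107-70525406, plus strand: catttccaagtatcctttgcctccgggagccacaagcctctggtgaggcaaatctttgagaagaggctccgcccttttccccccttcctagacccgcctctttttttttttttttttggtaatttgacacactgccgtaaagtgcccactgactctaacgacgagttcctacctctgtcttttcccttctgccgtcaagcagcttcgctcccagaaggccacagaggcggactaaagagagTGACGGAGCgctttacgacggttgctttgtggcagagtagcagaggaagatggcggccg
The capitals in Psmb8 are a GAS motif, in Psme1 an ISRE core on the other strand, and in Psmb5 and Psmb6 an ARE core. The window of Psmb9 holds none of the 4 motifs.

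The catalytic subunits of the immune core were abundant in both groups. Psmb8, which encodes the chymotrypsin-like subunit LMP7 (chromosome 17, 34198195 to 34201454 on mm10), had 337 FPKM in MEK1-hi against 188 FPKM in MEK1-low. This was a 1.796-fold rise (log2 0.84, statistic 2.24, q = 0.0369 in the authors' deposited table). Psmb8 was thereby the most abundant member in MEK1-hi, where 1.48% of tested rows had at least its FPKM, whereas in MEK1-low Psmb4 stood above it. Psmb9, which encodes LMP2 (chromosome 17, 34182099 to 34187330), had 193 FPKM in MEK1-hi against 99.9 FPKM in MEK1-low. Its 1.93-fold rise had the smallest q of all members (log2 0.95, statistic 2.56, q = 0.0118 in the authors' deposited table). Psmb10, which encodes MECL-1 (chromosome 8, 105935728 to 105938392), had 157 FPKM in MEK1-hi and 95.0 FPKM in MEK1-low. Its log2 fold change of 0.72 did not pass over all rows (p = 0.00325, q = 0.166 in the authors' deposited table).

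The constitutive partners did not pass the test and differed little. Psmb6, the caspase-like subunit that Psmb9 displaces, had 171 FPKM in MEK1-hi and 165 FPKM in MEK1-low (log2 0.05, q = 0.9998 in the authors' deposited table). Psmb7, the trypsin-like subunit displaced by Psmb10, had 127 FPKM in MEK1-hi and 132 FPKM in MEK1-low (log2 -0.05, q = 0.9998). Psmb5, the chymotrypsin-like subunit displaced by Psmb8, had 193 FPKM in MEK1-hi and 175 FPKM in MEK1-low in its row shared with Mir686. For that row the statistic was 0.02 at a log2 fold change of 0.14, whereas for Psmb1 a fold change of 0.14 came with a statistic of 0.39. The level and the test given for Psmb5 are those of the joint row.

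**Figure D1:**
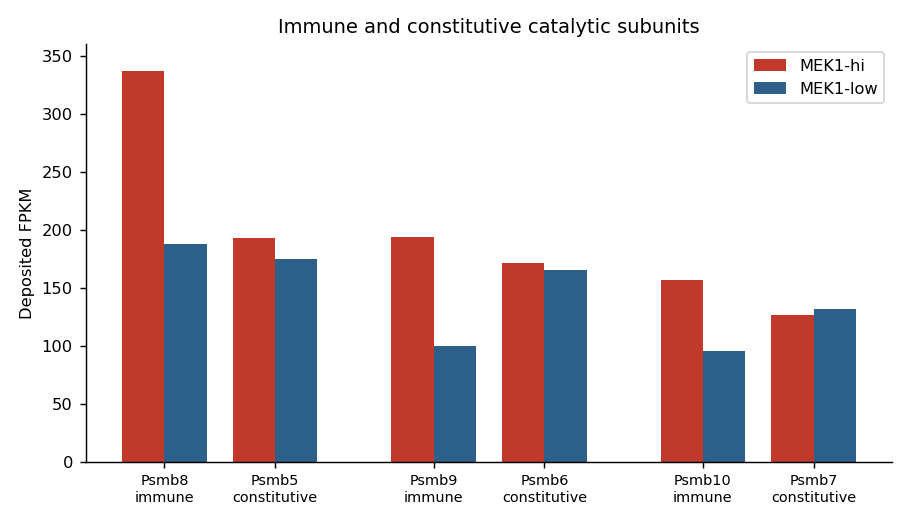
Deposited FPKM (vertical axis, from 0) of each immune catalytic gene and the constitutive gene whose product it displaces, with MEK1-hi left of MEK1-low; 1 pooled value per group, so no error bars. The immune genes are higher in MEK1-hi (337, 193 and 157 FPKM), and the constitutive genes stay between 127 and 193 FPKM in both groups; the bars of Psmb5 are those of its row shared with Mir686.

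By summed FPKM, the immune catalytic transcripts lay below the constitutive ones in MEK1-low and above them in MEK1-hi. Psmb8, Psmb9 and Psmb10 summed to 687 FPKM in MEK1-hi and 382 FPKM in MEK1-low, while Psmb5, Psmb6 and Psmb7 summed to 490.3 FPKM in MEK1-hi and 472 FPKM in MEK1-low. The immune genes made up 58.4% of the summed catalytic FPKM in MEK1-hi and 44.8% in MEK1-low, a gain of 13.6 percentage points. By pair, the ratio of Psmb8 to Psmb5 was 1.75 in MEK1-hi and 1.07 in MEK1-low. The ratio of Psmb9 to Psmb6 was 1.13 in MEK1-hi and 0.604 in MEK1-low, and that of Psmb10 to Psmb7 was 1.24 in MEK1-hi and 0.723 in MEK1-low. In MEK1-hi the immune gene thus exceeded its partner in all 3 pairs, whereas in MEK1-low it did so only for Psmb8. Set against MEK1-low, the 3 ratios were 1.63-fold, 1.87-fold and 1.71-fold as large in MEK1-hi, in the same order. These are descriptions of pooled transcript values, with no replicate check, and not of protein or assembled cores. Psmb5 enters by its row shared with Mir686, and 23.6% of the 100-base stretches of its transcript occur in other genes. Levels set between genes are uncertain to that extent.

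Among the activators, Psme1 and Psme2 were higher in MEK1-hi, and 1 of them, Psme2, was called (1.32% of all tested rows were). That call is limited, since 44.5% of the 100-base stretches of Psme2 also occur in another gene, as described below. Psme1, the PA28 alpha subunit (chromosome 14, 55578494 to 55585254), had 300.5 FPKM in MEK1-hi and 178 FPKM in MEK1-low. Its log2 fold change of 0.75 did not pass the threshold (statistic 2.01, q = 0.0757 in the authors' deposited table), and its locus is shared in the table with Emc9 (4.88 FPKM in MEK1-hi and 5.21 FPKM in MEK1-low). Psme2, the PA28 beta subunit (chromosome 14, 55587440 to 55591101), had 16.7 FPKM in MEK1-hi against 5.76 FPKM in MEK1-low. That 2.91-fold rise was the largest among the members (log2 1.54, statistic 2.43, q = 0.0344 in the authors' deposited table), and 1.39 with 1 FPKM added to both values. Activators outside the interferon-induced ring were not called, which for so few genes says little at that share. Psme3, the nuclear PA28 gamma, had 55.1 FPKM in MEK1-hi and 56.6 FPKM in MEK1-low, and Psme4, which encodes PA200, had 17.7 FPKM in MEK1-hi and 19.02 FPKM in MEK1-low (q = 0.9998 for each in the authors' deposited table). The ratio of Psme1 to Psme3 was 5.46 in MEK1-hi and 3.15 in MEK1-low. Psmf1, which encodes the proteasome inhibitor PI31, had 9.09 FPKM in MEK1-hi and 8.92 FPKM in MEK1-low.

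**Figure D2:**
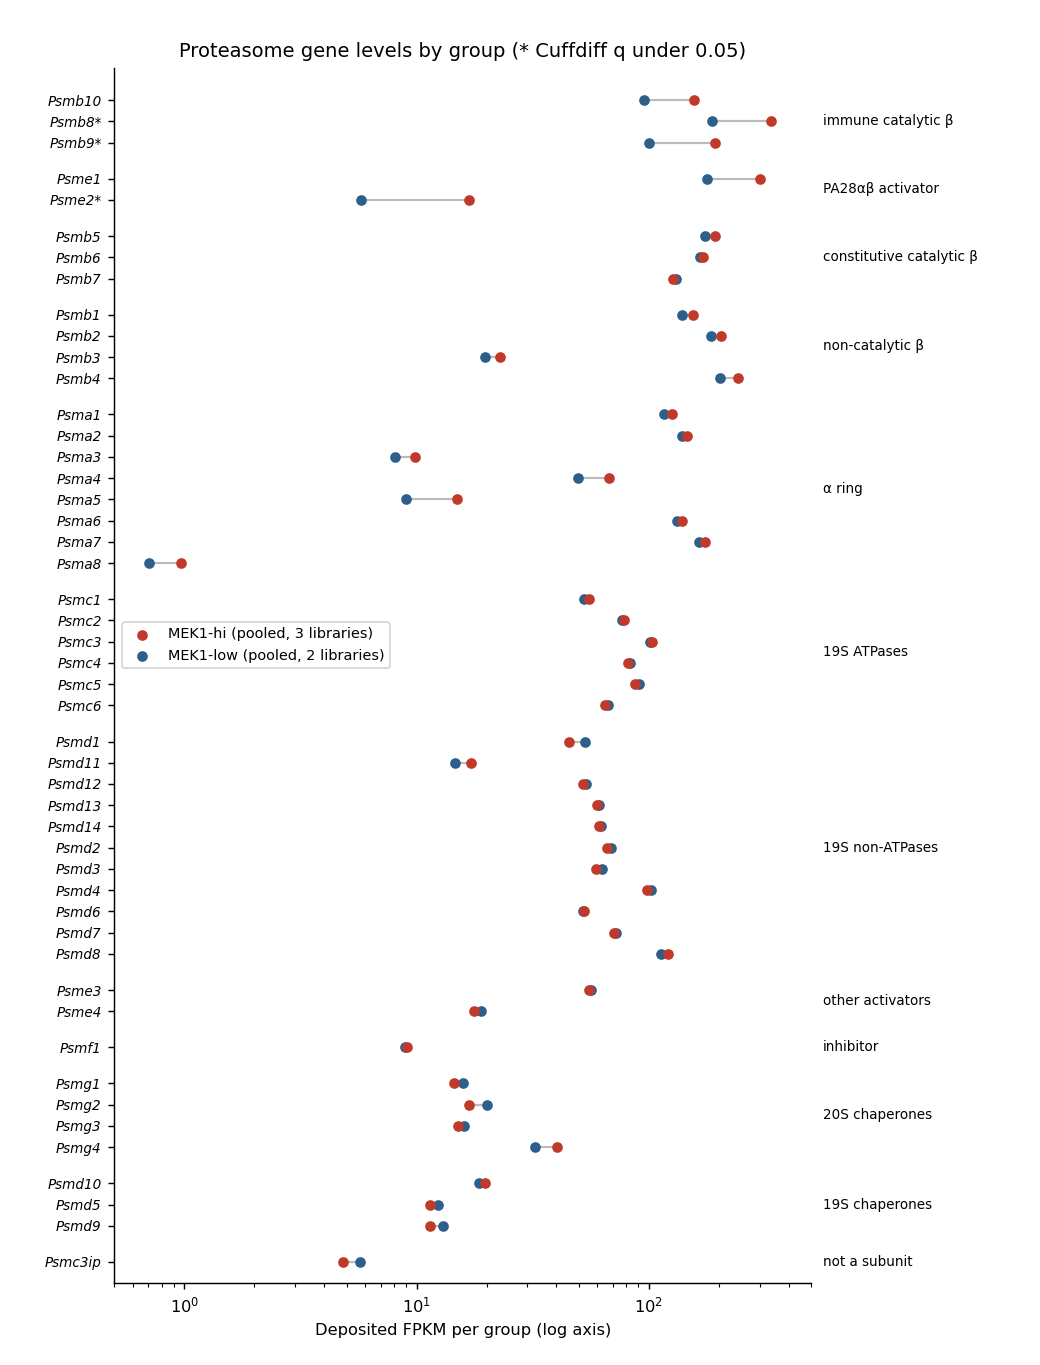
Deposited FPKM (horizontal log axis) of the 47 members and the Psmb5 row in MEK1-hi (red) and MEK1-low (blue), grouped by role; each point is 1 pooled value and a star marks a q under 0.05. The points separate for the immune subset and nearly coincide for the 19S subunits. Psma8, Psme2, Psma3, Psma5, Psmb3 and Psmd11 sit far below most other genes of their own complexes.

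Among the remaining core subunits, 0 were called (1.32% of all tested rows were), and their log2 fold changes ran from -0.05 for Psmb7 to 0.72 for Psma5. The 4 non-catalytic beta genes, Psmb1 to Psmb4, had log2 fold changes of 0.14 to 0.25, with the highest fold change and level in Psmb4 (241 FPKM in MEK1-hi and 203 FPKM in MEK1-low) and the lowest level in Psmb3 (22.8 FPKM in MEK1-hi and 19.8 FPKM in MEK1-low). Psmb1 had the lowest fold change, with 154 FPKM in MEK1-hi and 139 FPKM in MEK1-low. The 8 alpha genes, whose products gate the barrel, had fold changes of 0.07 to 0.72 and 0 calls. Psma7 led them in level, with 174 FPKM in MEK1-hi and 164 FPKM in MEK1-low. Psma2 and Psma6 had the lowest fold changes, Psma2 with 146 FPKM in MEK1-hi and 139 FPKM in MEK1-low, and Psma8, the testis form, was at 0.968 FPKM in MEK1-hi and 0.704 FPKM in MEK1-low. Psma5 had the largest difference of the alpha genes, 14.9 FPKM in MEK1-hi and 9.004 FPKM in MEK1-low (p = 0.0284, q = 0.618 in the authors' deposited table), followed by Psma8 (0.46) and by Psma4 at 67.4 FPKM in MEK1-hi and 49.4 FPKM in MEK1-low (q = 0.925 there). Of the 14 core members outside the immune subset, 13 lay above 0, against 46.2% of tested rows. That sign depended on the scaling. With both groups set to the same FPKM sum, which lowers every log2 fold change by 0.13, 8 of the 14 lay above 0. All 5 of the immune subset still did, between 0.59 and 1.41. The share of all tested rows above 0 was not computed on that scale. Setting the median of all tested rows to 0 would instead raise every log2 fold change slightly.

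The 19S cap stayed near the level of MEK1-low. Its 6 ATPase genes had log2 fold changes of -0.05 to 0.07 and sums of 470 FPKM in MEK1-hi and 471 FPKM in MEK1-low. Psmc3 was their most abundant, with 103 FPKM in MEK1-hi and 101 FPKM in MEK1-low, and Psmc1 their least, with 55.5 FPKM in MEK1-hi and 52.7 FPKM in MEK1-low. Psmc1 also had the highest fold change of the ATPase genes, and Psmc5 the lowest, with 87.6 FPKM in MEK1-hi and 90.5 FPKM in MEK1-low. The 11 non-ATPase genes ranged from -0.23 for Psmd1, a scaffold subunit (45.3 FPKM in MEK1-hi and 53.2 FPKM in MEK1-low), to 0.23 for Psmd11 (17.1 FPKM in MEK1-hi and 14.6 FPKM in MEK1-low), and Psmd8 was their most abundant (120 FPKM in MEK1-hi and 113 FPKM in MEK1-low). The ubiquitin receptor gene Psmd4 had 98.0 FPKM in MEK1-hi and 103 FPKM in MEK1-low, and Psmd14, which encodes the deubiquitinase of the lid, 60.8 FPKM in MEK1-hi and 62.3 FPKM in MEK1-low. Over the 17 cap genes, 6 lay above 0 and 11 below, with 46.2% of all tested rows above 0. After equal-sum scaling 1 cap gene lay above 0, and the share of all tested rows was not computed on that scale. The quartiles of all tested rows were -0.19 and 0.15. The smallest q of any cap gene was 0.9998 in the authors' deposited table.

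**Figure D3:**
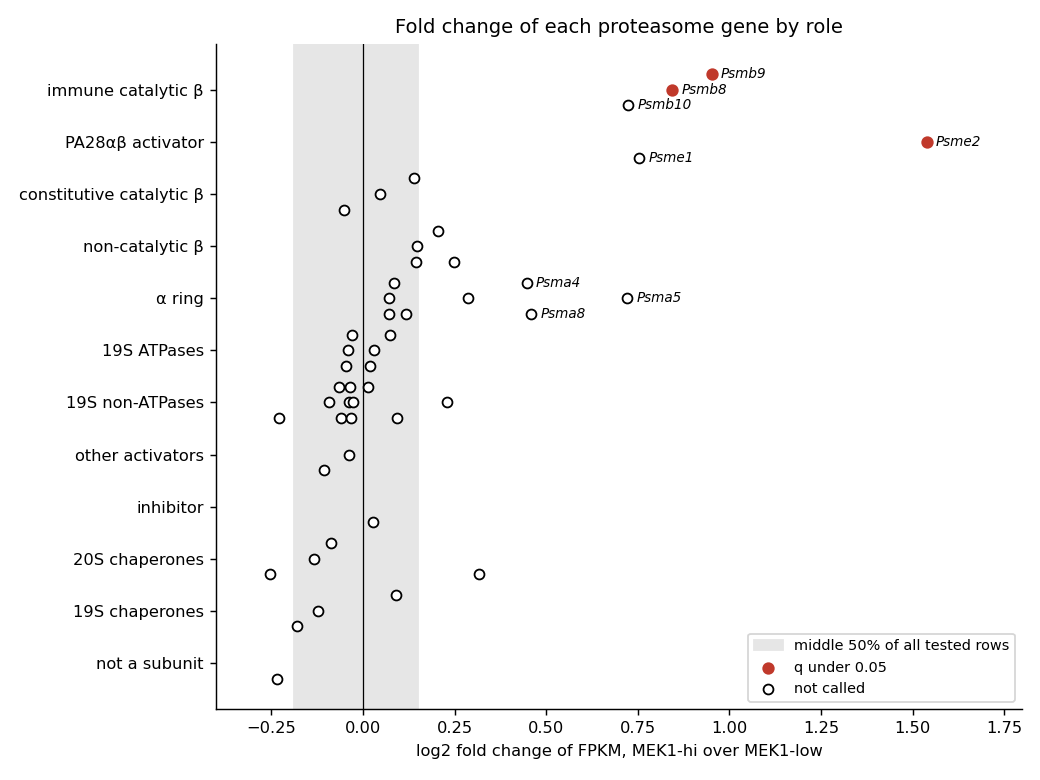
Log2 fold change of FPKM, MEK1-hi over MEK1-low (horizontal axis), of the 47 members and the Psmb5 row by role; filled points have a q under 0.05, open points do not, and the grey band spans the quartiles of all tested rows (-0.19 to 0.15). The 5 genes of the immune subset lie at 0.72 to 1.54, beside which only Psma5 comes close.

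Assembly factors were not called either. Since only 1.32% of all tested rows were called, 0 calls in lists as short as those of this paragraph say little. The core chaperone genes Psmg1 to Psmg4 had fold changes of -0.26 to 0.32. Psmg2 was the lowest of all members, with 16.8 FPKM in MEK1-hi and 20.1 FPKM in MEK1-low, Psmg1 had the lowest level, with 14.5 FPKM in MEK1-hi and 15.9 FPKM in MEK1-low, and Psmg4 the highest level and fold change of these chaperones, with 40.3 FPKM in MEK1-hi and 32.3 FPKM in MEK1-low. The cap chaperone genes Psmd5, Psmd9 and Psmd10 had fold changes of -0.18 to 0.09. Psmd9 was lowest, with 11.4 FPKM in MEK1-hi and 12.9 FPKM in MEK1-low, and Psmd10 highest, with 19.8 FPKM in MEK1-hi and 18.6 FPKM in MEK1-low. Psmc3ip had 4.83 FPKM in MEK1-hi and 5.69 FPKM in MEK1-low. Pomp, outside the symbol rule, encodes the maturation factor that core assembly needs. It had 215 FPKM in MEK1-hi and 164 FPKM in MEK1-low (log2 0.39, p = 0.102, q = 0.9998 in the authors' deposited table). Of 14 partners of the proteasome tested in rows of their own, Pomp included, 0 were called, 5 lay above 0 and 9 below (median -0.09). Nfe2l1, which encodes the factor that raises proteasome genes when proteolysis falls short, had 37.3 FPKM in MEK1-hi and 38.7 FPKM in MEK1-low. Of 3 activators of proteasome genes tested in rows of their own, 0 were called. Of 5 tested ubiquitin and E1 genes, 0 were called (median -0.12).

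Levels within the complexes were uneven, and several, but not all, of the genes with identical sequence elsewhere were low. For each member, the 100-base words of its longest coding transcript in GENCODE M21 were looked up in the transcripts of all genes at other loci, 100 bases being the read length. Psma8 apart, the 8 core genes outside the immune subset with no such word elsewhere had 126 to 241 FPKM in MEK1-hi and 117 to 203 FPKM in MEK1-low. Of the core genes with shared words, Psma2 (0.96%) lay in this range and Psma3, Psma4, Psma5 and Psmb3 lay below it. Psma3, with 20.6% of its words in another gene, had 9.81 FPKM in MEK1-hi and 8.03 FPKM in MEK1-low. The share was 27.5% for Psma5, 18.0% for Psmb3 and 7.69% for Psma4. The row of Psmb5, with a share of 23.6%, lay within the range. In the cap, the 14 genes without shared words had 45.3 to 120 FPKM in MEK1-hi and 52.3 to 113 FPKM in MEK1-low, and Psmd11, with a share of 8.62%, lay below them, while Psmd2, with 7.48%, had 65.9 FPKM in MEK1-hi and 68.7 FPKM in MEK1-low, and Psmc1, with 3.75%, 55.5 FPKM in MEK1-hi and 52.7 FPKM in MEK1-low, both within those ranges. Psme1, with a share of 1.09%, was among the most abundant members. Psmb8, Psmb9 and Psmb10 had a share of 0%. Shorter words, of 50 bases, gave higher shares, among them 14.1% for Psme1, 17.6% for Psmc1, 26.4% for Psmd2 and 50% for Psmb5. For Psmb8, Psmb9 and Psmb10 that share was still 0%. How the authors' read assignment treated such reads is not given in the sources used here, and the part of shared sequence in these levels was not tested.

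Psme2 held the highest share of the 47 members, 44.5%, all of it in Psme2b, a copy of the gene on chromosome 11. Psme2b itself was counted in a row shared with 9930111J21Rik1 and 9930111J21Rik2. That row had 241 FPKM in MEK1-hi and 145 FPKM in MEK1-low (log2 0.74, q = 0.145 in the authors' deposited table). Psme1 exceeded Psme2 17.9-fold in MEK1-hi and 30.9-fold in MEK1-low, although their products form one ring. The level and the fold change of Psme2 are therefore uncertain, and without Psme2 the median of the immune subset was 0.80.

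**Figure D4:**
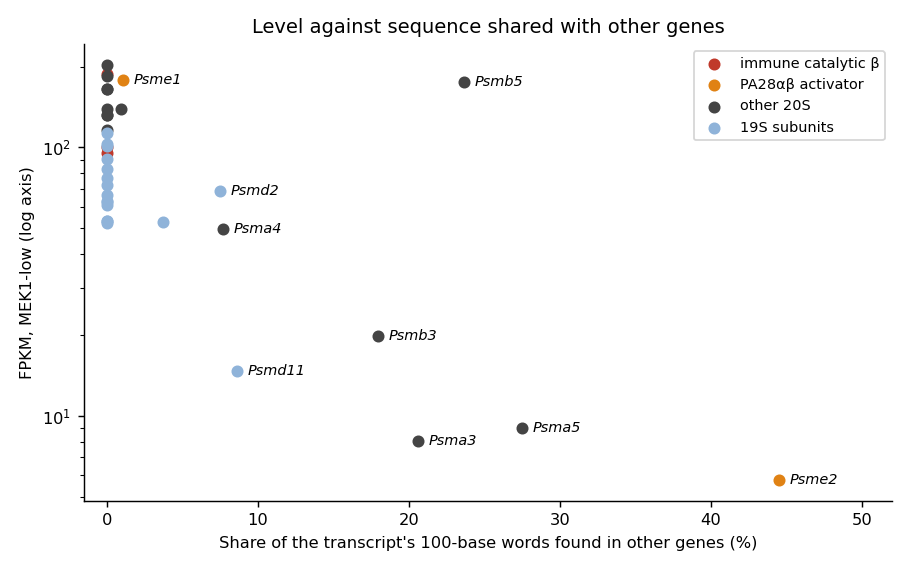
FPKM in MEK1-low (vertical log axis) of core, cap and PA28 genes except Psma8 against the share of each transcript's 100-base words found in genes at other loci (horizontal axis, percent). Psme2, Psma3, Psma5, Psmb3 and Psmd11 combine shared words with a low level, Psmb5 (in its joint row) has a share of 23.6% at a high level, and the immune catalytic genes have a share of 0%.

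Psmb8 and Psmb9 lie in the MHC on chromosome 17, interleaved with Tap1 and Tap2. Within 50000 bases of Psmb9, all 6 other rows were tested, with fold changes from 0.78 to 1.08. Of these, 4 were called higher, Psmb8 among them, and 0 lower, against 0.999% and 0.325% of all tested rows. Tap1 had 147 FPKM in MEK1-hi against 71.1 FPKM in MEK1-low (log2 1.05, q = 0.00676 in the authors' deposited table), and Tap2 had 92.8 FPKM in MEK1-hi against 50.7 FPKM in MEK1-low (log2 0.87, q = 0.0242 there). The others called were Psmb8 and H2-DMb1, a subunit of the class II peptide editor, with 358 FPKM in MEK1-hi against 169 FPKM in MEK1-low (log2 1.08, q = 0.00676 there). The starts of Tap1 and Psmb9 are 226 bases apart on opposite strands, so their windows share 275 bases (chr17:34187306-34187580). Of the 7 tested rows within 50000 bases of Psme1, Psme2 was the 1 called, and the others lay between -0.26 and 0.32, among them Irf9 with 38.9 FPKM in MEK1-hi and 31.2 FPKM in MEK1-low. Around Psmb10, 0 of 7 tested neighbours were called (median -0.05), with Ctrl at 0.66 and Dpep3 at 0.80, each under 1 FPKM in both groups.

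**Figure D5:**
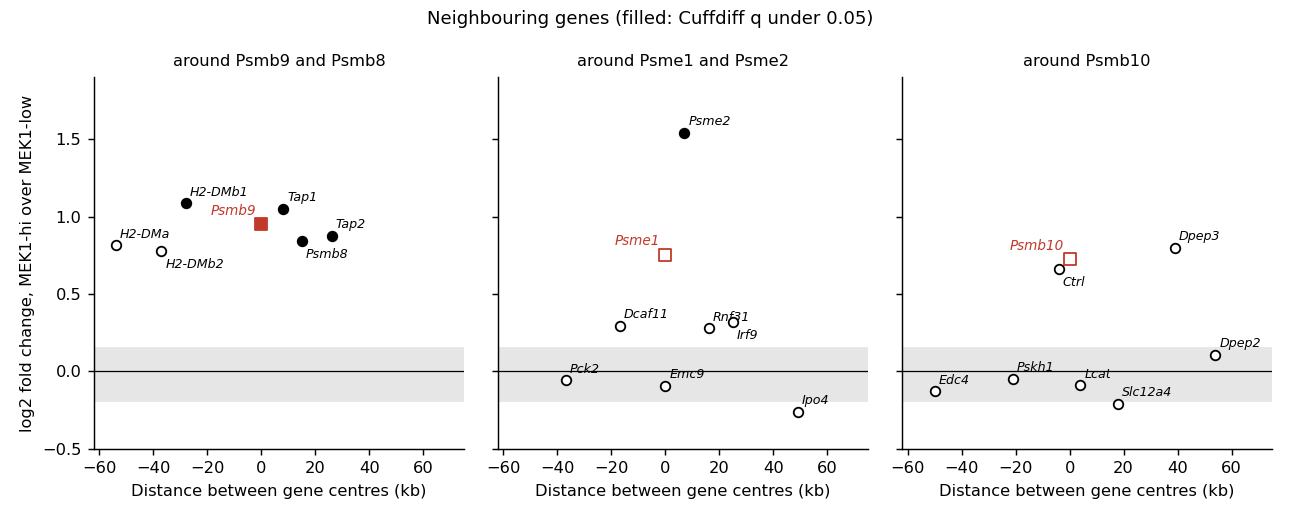
Log2 fold change, MEK1-hi over MEK1-low (vertical axis), of tested genes within 50000 bases of Psmb9 (left), Psme1 (middle) and Psmb10 (right) against the distance between gene centres in kb (horizontal axis); the square is that gene itself at 0, filled symbols have a q under 0.05, and the grey band spans the quartiles of all tested rows. All neighbours of Psmb9 lie at 0.78 or above, whereas those of Psme1 other than Psme2 lie between -0.26 and 0.32, and those of Psmb10 have a median of -0.05.

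The promoter windows were searched on both strands for 4 motifs. They were the ISRE core (GAAA, any 2 bases, GAAA) and the GAS motif TTCNNNGAA (the same on both strands), bound by interferon-activated factors, the ARE core TGACNNNGC, bound by Nfe2l1 and Nfe2l2 dimers, and the NF-kB motif (GGGA, any 1 base, TTTCC). No motif's matches overlapped those of another in the printed windows. Windows were found for 40 of 48 genes (the 47 members and Psmb5), all 5 immune genes included. The ISRE core was in 1 of 5 immune genes (Psme1, first base at position 10 after the start) and in 4 of 35 others (Psmb3, Psmd4, Psmd9 and Psmg4), against 3.44% of all windows. The GAS motif was in 1 of 5 (Psmb8, first base at position -97) and in 2 of 35 (Psmd2 and Psmg1), against 8.30% of all windows. The ARE core was in 0 of 5 immune genes and 6 of 35 others, Psmb5 (position -47) and Psmb6 (position -9) among them, against 12.4% of all windows. The NF-kB motif was in 0 of 5 and 0 of 35, against 0.411% of all windows. Windows of Psmb10 and Psme2 held no match. These are letter matches in short windows and say nothing of binding.

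Other genes of the same pathway were followed from lists, which were written by hand with earlier results of these data known. Of all tested rows, 1.32% were called, 0.999% higher and 0.325% lower. Of 10 class I peptide handling genes, 3 were called higher and 0 lower (median 0.52). They were Tap1, Tap2 and the peptide editor gene Tapbpl, which had 31.4 FPKM in MEK1-hi against 17.1 FPKM in MEK1-low (q = 0.0369 in the authors' deposited table). Nlrc5, which encodes the transactivator of class I genes and of Psmb9, had 34.8 FPKM in MEK1-hi and 22.6 FPKM in MEK1-low (log2 0.62, q = 0.284 there). Of 8 interferon-gamma signalling genes, 3 were called higher and 0 lower (median 0.41), namely Irf1, Irf8 and Socs1. Irf1 encodes a factor through which interferon-gamma raises Psmb8, Psmb9 and Psmb10. It had 305 FPKM in MEK1-hi against 146 FPKM in MEK1-low (log2 1.06, q = 0.0163 in the authors' deposited table). Irf8, a related factor of the myeloid lineage, had 114 FPKM in MEK1-hi against 61.6 FPKM in MEK1-low (log2 0.89, q = 0.0344 there). Socs1, which encodes a feedback inhibitor of the receptor's kinases, had 31.8 FPKM in MEK1-hi against 13.0 FPKM in MEK1-low (log2 1.30, q = 0.00676 there). The receptor genes Ifngr1 and Ifngr2 were at 0.24 and 0.25 and were not called (q = 0.9998 for each there).

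The macrophage markers were abundant, with all 12 tested, 0 called and a sum of 20350 FPKM in MEK1-hi and 17680 FPKM in MEK1-low. Markers of some other cells differed as well (1.32% of all tested rows were called). Of 8 dendritic cell markers, 2 were called higher, Xcr1 and Clec9a, and 0 lower (sums of 62.6 FPKM in MEK1-hi and 48.9 FPKM in MEK1-low). Of these markers 7 lay above 0 and 1 below, Cd209a, with 4.64 FPKM in MEK1-hi and 9.68 FPKM in MEK1-low (log2 -1.06, q = 0.274 in the authors' deposited table). Of 8 monocyte markers, 4 were called higher, Ly6c2, Plac8, Ace and Treml4, and 0 lower (384 FPKM in MEK1-hi and 219.9 FPKM in MEK1-low). Again 7 lay above 0 and 1 below, Vcan, with 11.5 FPKM in MEK1-hi and 19.01 FPKM in MEK1-low (log2 -0.72, q = 0.29 there). Of 12 T and NK cell markers, 9 were tested in rows of their own, 0 were called, and all 9 lay above 0 (26.4 FPKM in MEK1-hi and 12.4 FPKM in MEK1-low), with Ncr1 and Klrb1c under 0.1 FPKM in both groups. Of 11 fibroblast and fibrosarcoma markers tested in rows of their own, 4 were called lower, Col5a1, Col6a3, Thy1 and Acta2, and 0 higher (790.5 FPKM in MEK1-hi and 1335 FPKM in MEK1-low). Of 5 tested neutrophil markers 0 were called (85.8 FPKM in MEK1-hi and 93.5 FPKM in MEK1-low, with Ly6g under 0.1 FPKM in both groups). Of 4 B cell markers 1 was tested and 0 were called (9.50 FPKM in MEK1-hi and 8.505 FPKM in MEK1-low, with Pax5 under 0.1 FPKM in both groups). The part of these cells in the proteasome values was not tested.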

How the data were processed

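RNA-seq libraries of tumor macrophages were grouped by title, 3 as MEK1-hi and 2 as MEK1-low. Per the labels' protocols, TRIzol RNA with an integrity number above 8.0 went into stranded poly(A) libraries (750 ng), sequenced with 100-base paired reads. The submitters' processing notes name mm10, Cuffdiff, Cufflinks, TopHat and FastQC 0.73. Which annotation was used, and how reads that map to several loci were treated, is not given in the sources used here. What was analysed is a Cuffdiff table deposited by the authors, with 1 pooled FPKM per group. Its test statistic is a score the authors deposited, and its p-values and q-values are theirs too. The q-values matched a Benjamini-Hochberg adjustment over the 12311 tested rows to within 5e-07.

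Log2 fold changes were computed from the deposited FPKM with no pseudocount, and rows were called at q under 0.05. With no values per library, no other test was run. The adjustment code was tested on simulated data. Roles and lists were written by hand, and members and lists were chosen with earlier results of these data known. Some listed genes are not reported here and enter no count or sum of a list. Named were the immune subset, Psmb5 to Psmb7, every called member, the extremes of level and fold change in each role, called pathway genes with Pomp, Nfe2l1, Tap1 and Irf1, and, chosen after their values were seen, others such as Psmd4, Psmd14, Psma4, Nlrc5 and the receptor genes. Loci are the authors', written 1-based. Identical words of 100 and 50 bases came from GENCODE M21 transcripts, promoter windows from RefSeq. Alternatives changed the q threshold, adjustment, source of p, filter, pseudocount, scaling and choice of genes. Scripts ran in Python 3.11.15 with matplotlib 3.10.9, scipy 1.17.1, pandas 2.3.3 and numpy 2.4.6.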

Additional observations from a re-analysis of the deposited data

How the results depend on the processing

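The 3 calls rest on the deposited q-values at 0.05. At a q threshold of 0.01 the count over all tested rows was 91 in place of 163, and that of members and of the immune subset 0 in place of 3. Those 91 rows are the ones at the smallest Cuffdiff p, 5e-05. They share the q of 0.00676, which therefore does not rank them. At an unadjusted p under 0.05 there were 749 rows, 6 members, all 5 genes of the immune subset and 1 other member (Psma5). The Benjamini-Yekutieli adjustment gave 0 rows and so 0 members, and 0 in the immune subset. With the smallest Cuffdiff p at 5e-05, shared by 91 rows, no row could pass that adjustment at 0.05. Its outcome was thus fixed by this floor and says nothing of the members. With p taken from the test statistic and a normal distribution, 15 rows were called, 0 of them members and 0 in the immune subset. The cause of that difference was not tested. A q threshold of 0.1 called 198 rows and added Psme1 (4 members), and an adjustment over rows of at least 1 FPKM called 173 rows and the same 3 members. Equal FPKM sums moved the median of the immune subset to 0.71 and that of the other members to -0.12. A median of 0 over all tested rows gave 0.87 for the immune subset and 0.04 for the other members. Leaving out members with at least 5% of words elsewhere, an alternative added after seeing the data, gave -0.03 for the other members. The gain in the immune share of catalytic FPKM stayed between 12.7 and 14.4 percentage points whichever pair was left out. Of 42 alternatives, 27 stayed within tolerance (0.1 for a median, 1.5 times for a count or share). Leaving out each library was not possible without values per library. No paired analysis was possible because the table pools the libraries of each group.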
